A study of Mus musculus with 17 samples.

Results

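Immediate early genes are switched on within minutes of a stimulus, before any new protein has to be made. The 39 examined here were a fixed list of gene symbols, looked up in the count table through the mouse GRCm38 gene annotation. All 39 were found among the 53379 genes of the table, each had at least 1 read, and 38 passed the filter on low counts and were tested with the 17766 genes of the whole fit. Egr4 was the exception, with 30 reads in all 17 libraries together. The list was drawn up with earlier results of these data known, so its counts describe these genes and test nothing about the list.

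The RNA came from kidney cortex enriched for glomeruli, the filtering units, of BTBR mice, an inbred strain. Mice carrying Lep ob on both copies lack leptin and are obese and diabetic. Wild type mice (5 libraries, labelled WT-d30) were killed at the same age as the others, 24 weeks. Homozygous ob/ob mice received saline (5 libraries, labelled ob/ob-d30) or the endothelin receptor antagonist atrasentan at 5 mg per kg per day in drinking water (7 libraries, labelled BTBR ob) for 6 weeks from 18 weeks of age. The labels do not explain d30, they word the genotype of the treated and saline-treated mice differently, and they give no time between death and lysis of the tissue. The labels name no treatment for the wild type mice. Libraries are numbered in accession order, which pairs no mice. The submitters' own sample numbers, in the titles, run in blocks by group. Whether they follow the order of preparation is not stated, and such an order could not be told apart from the groups.

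Between 29161833 and 52528747 reads per library were assigned to genes. In the libraries of the atrasentan group, 3.17% to 5.65% of reads fell outside annotated genes, against 5.95% to 8.17% with saline and 6.26% to 8.58% in wild type, and the atrasentan range lay below both others (two-sided exact permutation test over libraries, p = 0.002525 for each, the smallest these group sizes can give, 0.007575 adjusted over 12 such tests). Genes with a read numbered 21396 to 23081 with atrasentan, 24335 to 25313 with saline and 23901 to 24877 in wild type. These library measures divide the groups exactly as the treatment does and cannot be told apart from it. The glomerular markers Podxl (1137 to 3538 CPM over the 17 libraries) and Emcn (930 to 2331 CPM) were present in every library, as were the tubule markers Lrp2, Umod and Aqp2.

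The proteins divide into transcription factors and brakes. FOS, JUN and EGR proteins bind DNA and carry the signal to later genes, and NR4A proteins are nuclear receptors that act without a known hormone. DUSP phosphatases switch off MAP kinases, ZFP36 proteins speed the decay of short-lived messages, BTG and TOB proteins restrain growth, and GADD45 and PPP1R15A proteins belong to stress responses. The kinase ERK and the factors SRF and CREB drive many of these genes. In tissue the transcripts are also known to rise during handling and dissociation.

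Promoter sequences from RefSeq (GRCm38.p6) were at hand for 32 of the 39 genes. Egr1, Egr3, Ier2, Fosl1, Klf10, Myc and Arc had none and were not examined. In the 250 bases before the annotated start, on either strand, TGACG occurred in 18 of the 32 (56.3%), against 19.8% of 27025 genes with a promoter. It is the core of the palindromic CREB element TGACGTCA, which contains it. The full TGACGTCA was found in 4 of the 32 (12.5%), Btg2, Dusp1, Maff and Ppp1r15a, against 1.77% of all genes. A CArG box, the SRF site, was found in 3 (9.38%), Dusp5, Egr2 and Zfp36, against 1.62%. The AP-1 element TGANTCA was found in Csrnp1 and Zfp36l1 (6.25%, against 7.82%), and the EGR element GCGTGGGCG in Maff alone (3.13%, against 0.622%). Bases further upstream than these 250 were not searched, so a site there would be missed. A gene with several starts counted once if any of its windows matched, and a match describes letters, not binding. Of the 15 genes with a window that fell with atrasentan against saline, 9 hold TGACG, beside 18 of the 32 in all. Genes that did not pass there, such as Atf3, Btg1 and Sgk1, hold it too. Shown here are the windows of the 5 genes that fell, hold TGACG and overlap no annotated exon. They were chosen among genes that fell and do not show that the motif goes with the fall. Each is on the gene's own strand and ends at the base before the start. Capitals mark TGACG, on this strand or as its complement on the other, or the full palindrome.

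Fos, chr12:85473640-85473889, plus strand: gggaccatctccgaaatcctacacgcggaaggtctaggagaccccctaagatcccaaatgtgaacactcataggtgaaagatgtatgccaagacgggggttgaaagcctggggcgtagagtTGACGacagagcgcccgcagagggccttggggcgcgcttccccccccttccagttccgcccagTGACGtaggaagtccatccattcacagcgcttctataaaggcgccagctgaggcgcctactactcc

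Junb, chr8:84978749-84978998, minus strand: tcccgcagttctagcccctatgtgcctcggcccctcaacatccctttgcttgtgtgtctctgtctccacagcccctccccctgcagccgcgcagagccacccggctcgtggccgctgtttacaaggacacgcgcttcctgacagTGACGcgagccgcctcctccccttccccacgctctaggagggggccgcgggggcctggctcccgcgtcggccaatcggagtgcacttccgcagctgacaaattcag

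Nr4a1, chr15:101266596-101266845, plus strand: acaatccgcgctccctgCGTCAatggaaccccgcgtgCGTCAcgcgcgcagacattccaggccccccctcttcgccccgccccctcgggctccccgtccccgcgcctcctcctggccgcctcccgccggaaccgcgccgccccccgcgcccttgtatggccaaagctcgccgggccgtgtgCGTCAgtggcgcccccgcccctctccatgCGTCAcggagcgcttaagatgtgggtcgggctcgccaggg

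Btg2, chr1:134079156-134079405, minus strand: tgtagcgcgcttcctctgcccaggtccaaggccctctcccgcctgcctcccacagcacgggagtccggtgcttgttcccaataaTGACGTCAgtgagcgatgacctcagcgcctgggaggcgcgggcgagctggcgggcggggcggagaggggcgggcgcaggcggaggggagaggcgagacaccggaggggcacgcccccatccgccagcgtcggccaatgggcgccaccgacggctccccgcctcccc

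Tob1, chr11:94211204-94211453, plus strand: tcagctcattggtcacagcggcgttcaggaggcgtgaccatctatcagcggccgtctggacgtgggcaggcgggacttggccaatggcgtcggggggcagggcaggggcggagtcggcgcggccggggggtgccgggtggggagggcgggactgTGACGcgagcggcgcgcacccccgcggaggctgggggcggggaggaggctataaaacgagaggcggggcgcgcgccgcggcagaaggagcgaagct

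In these windows TGACG begins 129 and 66 bases before the start of Fos, 106 before that of Junb and 96 before that of Tob1. In Nr4a1 it lies on the other strand at 4 places, between 233 and 36 bases before the start. The Btg2 window holds the full palindrome, from 166 to 159 bases before the start.

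Levels are given in CPM, a gene's reads relative to all gene reads of its library after trimmed-mean scaling of library sizes. Divided by the length of a gene's exons, the highest mean levels in wild type glomeruli were those of Dusp1 (514 CPM per kb), Junb (468), Sgk1 (447), Fos (443) and Ier2 (388). Their order among themselves is not firm, since Fos ranged 5.7-fold and Junb 2.97-fold between the 5 wild type libraries. With saline Fos led (769 CPM per kb), followed by Dusp1 (709) and Junb (685). With atrasentan Sgk1, a kinase that raises sodium transport, led (599 CPM per kb), Dusp1 followed (368), and Fos stood at 160 and Egr1 at 46.6. At the other end Egr2, Egr3, Nr4a3 and Fosl1 stayed under 2 CPM per kb in every group, and Egr4 under 0.1.

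**Figure D1:**
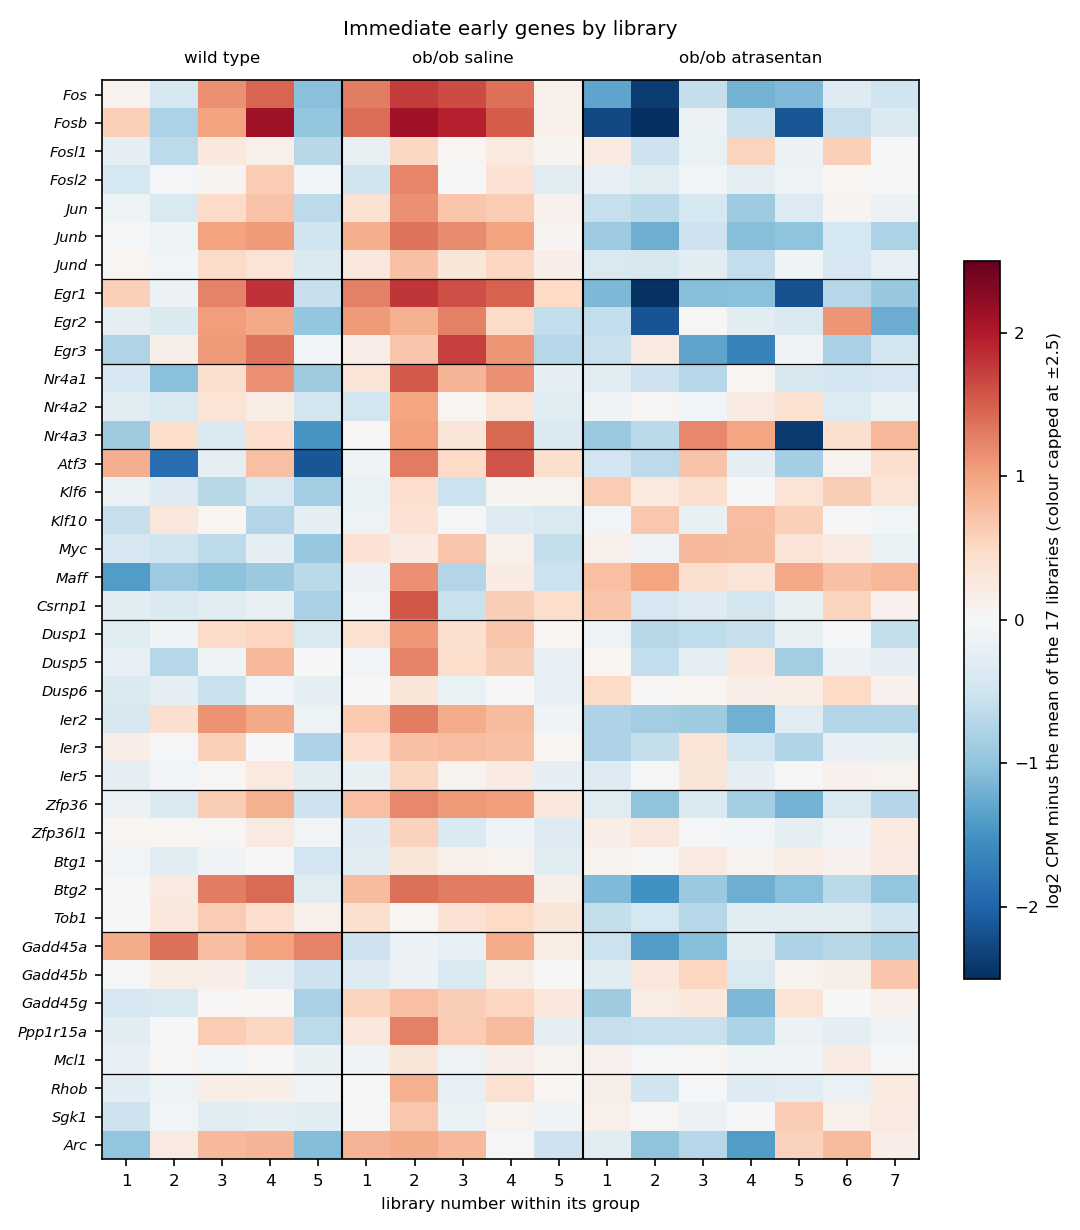
Log2 CPM of the 38 tested genes (rows, grouped by role) in the 17 libraries (columns, numbered within their group), minus each gene's mean over the 17 libraries, with the colour capped at 2.5 in either direction. The upper rows, the FOS, JUN and EGR genes, are mostly blue (low) in the 7 atrasentan libraries and red (high) in wild type libraries 3 and 4 and saline libraries 1 to 4.

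Averaged over the 39 genes, the level was 6.27 ± 0.42 log2 CPM in wild type (SD, n = 5), 6.70 ± 0.36 with saline (n = 5) and 6.01 ± 0.18 with atrasentan (n = 7). The wild type libraries stood at 6.09, 6.09, 6.60, 6.79 and 5.77, the saline libraries at 6.53, 7.14, 6.76, 6.90 and 6.20, and the atrasentan libraries between 5.72 and 6.24 with a median of 5.95. The atrasentan libraries overlapped wild type libraries 1, 2 and 5 and saline library 5, and lay below wild type libraries 3 and 4.

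Atrasentan against saline, both in ob/ob mice, gave the most calls of the 3 comparisons. Of the 38 genes 18 fell (47.4%) and 0 rose at an adjusted p under 0.05, where 18.5% of all tested genes fell and 15.3% rose. The median log2 fold change was −0.67 over the 38 and −0.01 over all genes, and 29 of the 38 were lower. In 11 genes every atrasentan library lay below every saline library (28.9%, against 5.76% of all genes), and in 0 every one lay above (6.07% of all genes). The 11 were Fos, Fosb, Jun, Junb, Jund, Egr1, Dusp1, Ier2, Zfp36, Btg2 and Tob1. Fewer cells of a type and less RNA per cell cannot be told apart in tissue RNA.

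At an unadjusted p under 0.05 in the same edgeR fit 2 of the 38 were higher, Klf6 and Maff (5.26%, against 21.1% of all genes). The count of 0 that rose changed with the tool and the libraries. DESeq2 also gave 0, whereas Maff rose with limma-voom (0.73 ± 0.23, adjusted p = 0.022) and on the deposited log2 values with limma (0.50 ± 0.17, 0.0345), and Klf6 rose without atrasentan library 4 (0.42, 0.0469). Without saline library 2, 16 genes fell and 4 rose: Maff (0.99 ± 0.20 on the log2 scale, ± SE here and below; adjusted p = 0.0014), Klf6 (0.49 ± 0.16, 0.0234), Zfp36l1 (0.32 ± 0.10, 0.0252) and Dusp6 (0.32 ± 0.11, 0.0398). These genes were looked up after the count was seen. The share of all genes that rose without saline library 2 is not given here. With all 17 libraries it was 15.3%, and the leave-one-out fits called 4361 to 6338 genes in all. The 4 that rose are therefore description only.

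Among the AP-1 genes, Fos was found at 762, 538, 1586, 1979 and 348 CPM in the wild type libraries, 1774, 2406, 2214, 1863 and 790 with saline, and between 140 and 573 with atrasentan (median 333). Saline library 5 was well below the other 4, and still above every atrasentan library. Fos (chromosome 12, 85473890 to 85477273) fell by 2.26 ± 0.40 on the log2 scale, 4.8-fold lower than with saline (edgeR, adjusted p = 0.00069).

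Fosb, the closest relative of Fos, stood at 35.2, 13.5, 47.1, 101 and 11.8 CPM in wild type, 62.1, 101, 90.1, 67.0 and 25.6 with saline, and 3.02 to 21.2 with atrasentan (median 15.6). It fell by 2.52 ± 0.55 (adjusted p = 0.00246), with no overlap between the ob/ob groups. Fosl1 and Fosl2, which code for the other 2 proteins of the FOS family, did not pass. Fosl1 read 1.83 to 3.51 CPM in wild type, 2.57 to 4.19 with saline and 2.04 to 4.41 with atrasentan. Fosl2 read 25.3 to 53.5, 24.6 to 80.7 and 28.2 to 35.5 in the same order. The Fosl1 count is the least certain of the 4, since 57.2% of its exon bases also belong to Ccdc85b on the other strand.

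Of the JUN genes, which pair with FOS, Junb read 784, 735, 1615, 1681 and 566 CPM in wild type, 1518, 2058, 1831, 1623 and 847 with saline, and 346 to 589 with atrasentan (median 427). Junb (chromosome 8, 84974484 to 84978718) fell by 1.80 ± 0.26 (adjusted p = 0.000242). Jun read 706, 588, 1059, 1252 and 483 in wild type, 998, 1688, 1240, 1188 and 828 with saline, and 414 to 806 with atrasentan (median 562), a fall of 1.04 ± 0.23 (adjusted p = 0.00276). Jund, the JUN gene known for steadier expression, had the smallest change of the 3. It read 179 to 321 in wild type, 258 to 385 with saline and 152 to 214 with atrasentan, a fall of 0.75 ± 0.13 (adjusted p = 0.000718), and 52.6% of its exon bases are shared with Gm11175 on the other strand. For each of the 3 JUN genes the saline libraries stood clear of the atrasentan libraries.

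Egr1, a zinc finger factor and a direct target of ERK signalling, had the largest change of the 38 genes by fold. It read 744, 449, 1173, 1722 and 331 CPM in wild type, 1179, 1703, 1516, 1374 and 703 with saline, and 89.6 to 300.2 with atrasentan (median 238). Egr1 (chromosome 18, 34859823 to 34864984) fell by 2.63 ± 0.38, 6.20-fold lower than with saline (adjusted p = 0.000217), and the lowest wild type library also lay above all 7. Egr3 was rare, at 0.728 to 3.95 CPM with saline and 0.375 to 1.39 with atrasentan, and fell by 1.35 ± 0.43 (adjusted p = 0.0227). That call was lost without saline library 3 (−0.99, 0.103). Egr2, at 1.43 to 5.28 CPM with saline and 0.49 to 4.73 with atrasentan, did not pass (adjusted p = 0.124), though without atrasentan library 6 it did (−1.35, 0.0212).

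Of the NR4A receptors only Nr4a1 passed. It read 257, 168, 453, 754 and 186 CPM in wild type, 431, 996, 621, 755 and 289 with saline, and 208 to 353 with atrasentan (median 256). The lowest saline library lay inside the atrasentan range. Nr4a1 fell by 1.23 ± 0.33 (adjusted p = 0.00977). Nr4a2 (7.36 to 20 CPM with saline, 7.92 to 13.2 with atrasentan) and Nr4a3 (1.14 to 3.97 and 0.279 to 3.37) did not pass.

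**Figure D2:**
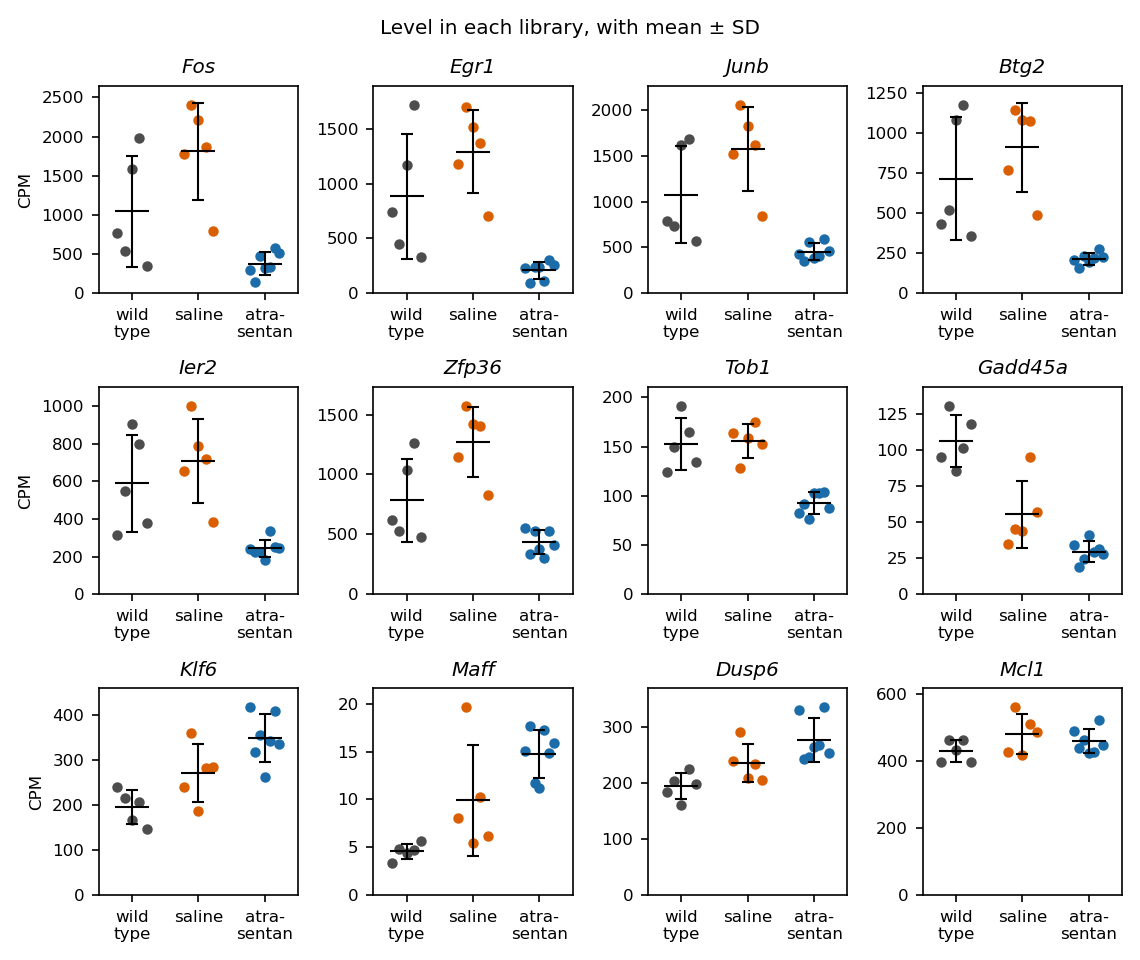
Level of 12 members in CPM (vertical axes start at 0) in each library of the 3 groups; points are libraries, bars the group mean and SD. Fos, Egr1, Junb, Btg2, Ier2, Zfp36 and Tob1 show all 7 atrasentan points below the 5 saline points, whereas Klf6, Maff and Dusp6 show them above the 5 wild type points and Mcl1 shows 3 overlapping groups.

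Among the feedback genes, Dusp1, the phosphatase that switches off p38 and JNK, read 1285, 1494, 2216, 2309 and 1212 CPM in wild type, 2076, 3356, 2082, 2578 and 1643 with saline, and 978 to 1560 with atrasentan (median 1068). It fell by 0.95 ± 0.20 (adjusted p = 0.00199) without overlap against saline. Ier2, a nuclear protein of the early growth response, read 315 to 907 in wild type, 655, 1004, 788, 720 and 383 with saline, and 179 to 335 with atrasentan, a fall of 1.55 ± 0.25 (adjusted p = 0.000384). Its groups also did not overlap, with saline library 5 the nearest. Ier3 fell by 0.90 ± 0.21 (adjusted p = 0.0044; 103 to 169 CPM with saline, 58.1 to 125 with atrasentan).

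Dusp5, the nuclear ERK phosphatase, was at the edge of the threshold. It read 19.3 to 52.8 CPM with saline and 12.2 to 26.7 with atrasentan, a fall of 0.71 ± 0.27 (adjusted p = 0.0473). Leaving out any 1 of 11 libraries ended the call (wild type 1, 3 or 5, saline 2, 3 or 4, atrasentan 2, 3, 5, 6 or 7), with values between −0.84 and −0.44 over all 17 such fits and an adjusted p up to 0.184. Dusp6, the ERK phosphatase of the cytoplasm, and Ier5 did not pass.

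Zfp36, which codes for the mRNA decay factor tristetraprolin, read 619, 530, 1040, 1262 and 475 CPM in wild type, 1147, 1575, 1421, 1402 and 827 with saline, and 301 to 550 with atrasentan (median 412), a fall of 1.56 ± 0.24 (adjusted p = 0.000297). Btg2, an antiproliferative p53 target, read 433, 517, 1079, 1174 and 357 in wild type, 765, 1145, 1083, 1071 and 488 with saline, and 155 to 277 with atrasentan (median 216). Btg2 (chromosome 1) fell by 2.09 ± 0.28, 4.25-fold (adjusted p = 0.000159), the lowest adjusted p of the 38 in this comparison. The 7 atrasentan values were the 7 lowest of the 17 for this gene.

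Tob1, of the same family as Btg2, had a different shape. Its 5 wild type libraries (124, 149, 191, 165 and 135 CPM) and 5 saline libraries (164, 128, 159, 175 and 152) lay together, and its atrasentan libraries (76.0 to 104, median 91.8) lay below both. It fell by 0.75 ± 0.11 against saline (adjusted p = 0.000276). Zfp36l1 and Btg1, the paralogs of Zfp36 and Btg2, did not pass, and read 106 to 201 and 148 to 217 CPM with saline and 115 to 165 and 181 to 207 with atrasentan.

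Of the stress genes, Ppp1r15a (GADD34, which reverses the translation block of the stress response) read 126, 152, 234, 218 and 95.7 CPM in wild type, 181, 360, 234, 260 and 127 with saline, and 87.9 to 142 with atrasentan. It fell by 1.02 ± 0.24 (adjusted p = 0.0038). Gadd45a fell by 0.91 ± 0.21 (0.00428) and Gadd45g by 0.62 ± 0.22 (0.0379). Gadd45g lost its call without saline library 1, 2, 3 or 4 or atrasentan library 1, with values from −0.71 to −0.50 over the 17 leave-one-out fits and an adjusted p up to 0.0754. Gadd45b and Mcl1, which codes for a survival protein, did not pass. Mcl1 was among the steadiest of the 38, at 397 to 464 CPM in wild type, 420 to 563 with saline and 426 to 524 with atrasentan.

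None of the 6 other transcription factors passed against saline in the edgeR fit of all 17 libraries. Atf3, induced by stress, ranged from 12.4 to 102 CPM in wild type, 50.6 to 163 with saline and 30.4 to 90.4 with atrasentan, and its difference of −0.90 ± 0.46 did not pass (adjusted p = 0.139), though it passed when only the 2 ob/ob groups were fitted (−0.92, 0.0476). Csrnp1 and Klf10 did not pass either. Of Rhob, Sgk1 and Arc none passed. Rhob, which codes for a short-lived GTPase, read 261 to 554 CPM with saline and 212 to 354 with atrasentan, and passed without saline library 3 (−0.48, adjusted p = 0.0443).

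**Figure D3:**
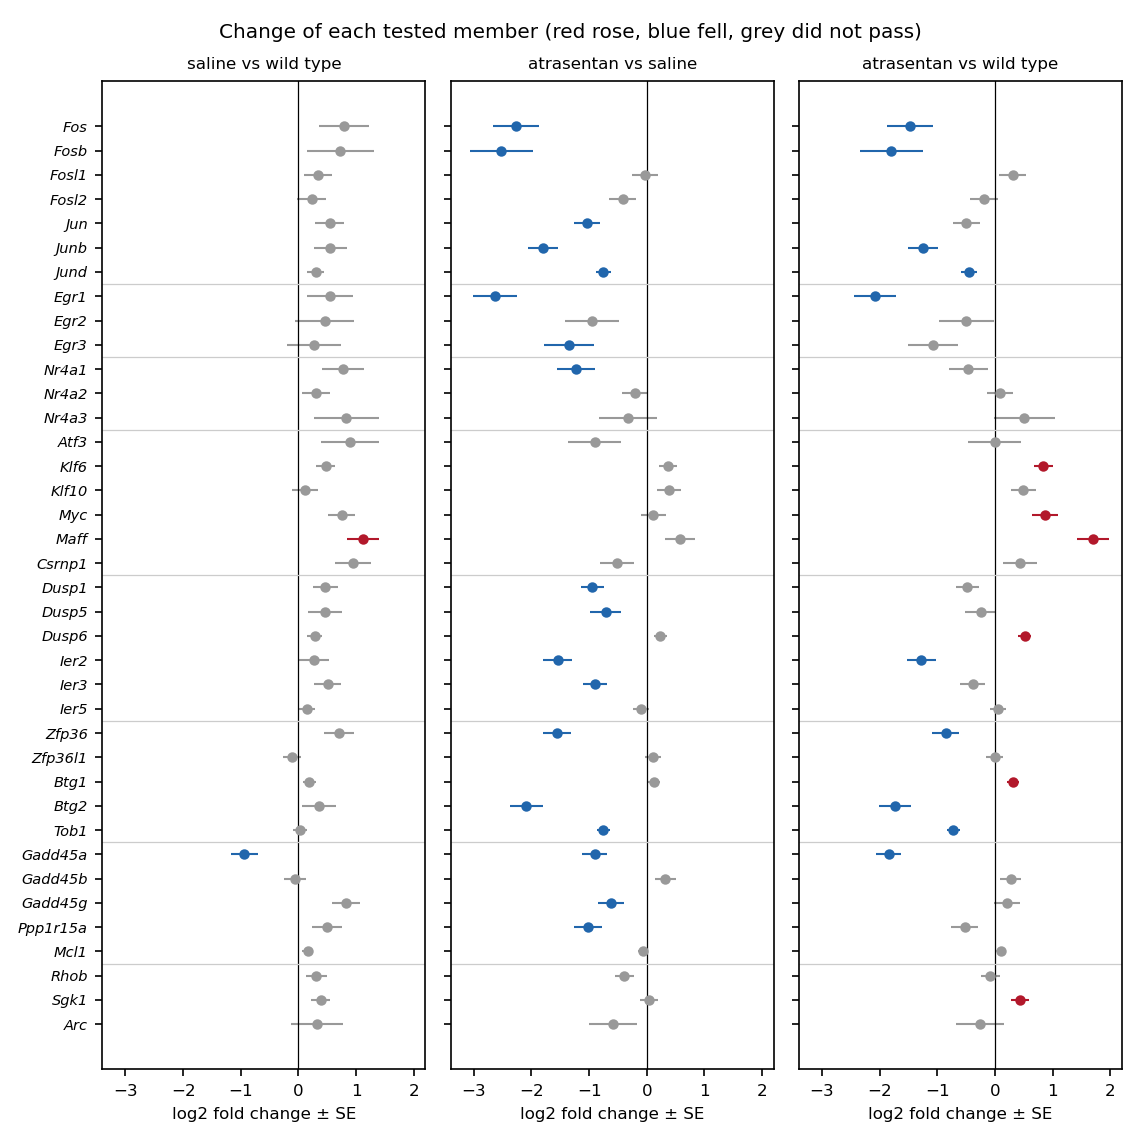
Log2 fold change (horizontal axis, ± SE from the edgeR fit) of the 38 tested genes in the 3 comparisons, coloured by whether the gene rose, fell or did not pass at an adjusted p under 0.05. Against saline the 18 that fell run from −2.63 (Egr1) to −0.62 (Gadd45g); against wild type 10 fell and 6 rose; saline against wild type lies mostly to the right of 0 with 2 genes past the threshold.

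Atrasentan-treated ob/ob against wild type mice differ in genotype and in treatment at once. Of the 38 genes 10 fell (26.3%) and 6 rose (15.8%), where 14.5% of all tested genes fell and 14.7% rose. The share that rose was close to that of all genes. Every atrasentan library lay below every wild type library in 4 genes, Egr1, Btg2, Tob1 and Gadd45a (10.5%, against 7.06% of all genes), and above in 5, Klf6, Myc, Maff, Dusp6 and Btg1 (13.2%, against 6.16%). This comparison shares the atrasentan libraries with the one above, so the 2 sets of values are not independent.

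The 10 that fell had all fallen against saline too. Btg2 fell by 1.73 ± 0.28 (adjusted p = 0.000233), and Egr1 fell by 2.08 ± 0.37 (0.000553). Tob1 (−0.73 ± 0.11, 0.000185), Ier2 (−1.28 ± 0.25, 0.0011) and Junb (−1.25 ± 0.26, 0.00186) fell as well. Gadd45a had the lowest adjusted p of the 38, falling by 1.85 ± 0.22, 3.60-fold (2.06e-05). The other 4 were Fos (−1.47 ± 0.40, 0.0105), Fosb (−1.80 ± 0.54, 0.0187), Zfp36 (−0.86 ± 0.24, 0.0117) and Jund (−0.45 ± 0.14, 0.0188). Fosb and Zfp36 lost the call without wild type library 4 (−1.16, 0.106, and −0.62, 0.0524), and Jund without wild type library 3 or 4 (adjusted p up to 0.0759). For 8 further genes that fell against saline, among them Jun, Nr4a1 and Dusp1, the difference from wild type did not pass. Dusp1 passed there without wild type library 5 (−0.58, 0.047) or atrasentan library 6 (−0.55, 0.0479), Jun (−0.64, 0.0473) and Ppp1r15a (−0.67, 0.0445) without wild type library 5, and Egr3 without wild type library 1 (−1.28, 0.0364) or atrasentan library 2 (−1.25, 0.0414). Klf10 passed as higher without wild type library 2 (0.64, 0.0392).

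Among the genes that fell against saline, Gadd45a alone was lower on average with saline than in wild type. Gadd45a codes for a p53-induced regulator of the cell cycle and DNA repair. It read 95.4, 131, 85.3, 101 and 118 CPM in wild type, 34.9, 45.3, 43.6, 94.9 and 57.1 with saline, and 19.1 to 40.7 with atrasentan (median 29.3). Saline library 4 lay inside the wild type range and the other 4 below it. A transcript on the other strand, E230016M11Rik, shares 19.1% of its exon bases. The mean of the podocyte markers had the same order of groups, 8.21 log2 CPM in wild type, 7.27 with saline and 6.33 with atrasentan. A link between them was not tested.

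The 6 genes that rose against wild type did not pass against saline. Maff, a small partner of NRF2 and AP-1 factors, read 3.39, 4.76, 4.39, 4.68 and 5.60 CPM in wild type, 8.01, 19.7, 5.40, 10.3 and 6.13 with saline, and 11.1 to 17.7 with atrasentan (median 15.0). It rose by 1.70 ± 0.27, 3.24-fold (adjusted p = 0.000231). The saline libraries spread over more than the atrasentan range, with library 2 above it and 4 below it.

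Klf6, a zinc finger factor of injured epithelium and endothelium, read 240, 215, 166, 208 and 148 CPM in wild type, 241, 362, 186, 283 and 284 with saline, and 263 to 419 with atrasentan, a rise of 0.84 ± 0.16 (adjusted p = 0.000899). Myc read 5.78 to 9.46, 7.35 to 18.1 and 10 to 19.5 CPM, and rose by 0.87 ± 0.22 (0.00668). Dusp6 read 161 to 225, 206 to 291 and 242 to 336, and rose by 0.51 ± 0.12 (0.00319). Btg1 read 127 to 174 CPM in wild type and 181 to 207 with atrasentan, a rise of 0.31 ± 0.10 (0.0337) that was lost without wild type library 2 or 5 or atrasentan library 3 or 7 (adjusted p up to 0.102). Sgk1 read 1839 to 2510 and 2390 to 4092 CPM, and its rise of 0.42 ± 0.16 (0.0497) was lost in 12 of the 17 leave-one-out fits (without wild type 1, 3, 4 or 5, saline 1, 4 or 5, or atrasentan 1, 2, 5, 6 or 7; adjusted p up to 0.118). With upper-quartile scaling Btg1 and Sgk1 also lost their calls and Dusp1 fell, so that 4 rose and 11 fell. Of all 17766 tested genes, 1897 rose and 3153 fell with that scaling.

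Few genes passed in saline-treated ob/ob mice compared with wild type. Of the 38 genes 1 rose, Maff (2.63%, against 3.21% of all tested genes), and 1 fell, Gadd45a (2.63%, against 1.91%). Both shares were near those of all genes. At an unadjusted p under 0.05 there were 12 of 38 (31.6%, against 21.5% of all genes). The fold changes lay mostly on one side, with 35 of 38 higher in saline and a median of 0.42, against 0.01 over all genes. In 1 gene, Gadd45g, every saline library was higher (2.63%, all genes 3.46%), and in 0 every one was lower (all genes 3.96%).

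Maff rose by 1.12 ± 0.28 (adjusted p = 0.0325) and Gadd45a fell by 0.94 ± 0.23 (0.032). Neither call was stable when libraries were left out. Maff lost it without any 1 of the 5 wild type libraries or saline library 1 (values 0.71 to 1.27, adjusted p up to 0.0819), and Gadd45a without any 1 wild type library or saline library 1, 3 or 5 (−1.23 to −0.82, up to 0.0982). Gadd45g, a relative of Gadd45a, read 70.7, 72.5, 96.7, 97.8 and 54.3 CPM in wild type and 139, 159, 145, 139 and 114 with saline, and narrowly missed the threshold (0.83 ± 0.24, adjusted p = 0.0551). It passed without atrasentan library 1 (0.83, 0.0439) or 4 (0.83, 0.0312), with DESeq2 (0.84, 0.0137), with DESeq2's size factors in edgeR (0.84, 0.0485) and in a fit of these 2 groups alone (0.81, 0.0179). Its atrasentan libraries, 43.3 to 120 CPM, reached both other groups. Myc, at 7.35 to 18.1 CPM with saline, missed it too (0.75 ± 0.23, 0.0662) and passed without saline library 5 (0.90, 0.0355) and with DESeq2 (0.76, 0.0202), as did Csrnp1 with DESeq2 (0.96, 0.0336). Fos, Egr1, Junb and Btg2 did not pass, with overlapping groups (adjusted p from 0.281 to 0.552).

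By the median over genes, wild type and saline libraries differed more in these genes than among all tested genes. Atrasentan libraries did not. The median over the 38 genes of the standard deviation of log2 CPM within wild type was 0.42, against 0.27 over all tested genes. Within saline it was 0.49 against 0.27, and within atrasentan 0.30 against 0.35. Single genes departed from that median within atrasentan. The SD there was 1.23 for Nr4a3, 1.12 for Fosb and 0.69 for Fos, but 0.08 for Btg1 and 0.11 for Mcl1. The most variable within groups were Fosb (pooled SD 1.09), Nr4a3 (0.99) and Atf3 (0.93), and the steadiest was Mcl1 (0.13). In wild type, the highest library had 8.6 times the lowest for Fosb, 8.27 times for Atf3, 5.7 times for Fos and 5.2 times for Egr1, and 1.17 times for Mcl1. With atrasentan it had 7.01 times the lowest for Fosb, 2.97 times for Atf3, 4.11 times for Fos and 3.35 times for Egr1.

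The differences ran across genes in the same libraries. Wild type libraries 3 and 4 were together the highest 2 of their group in 22 of 38 genes, and in 9.56% of all tested genes. Wild type library 5 was the lowest in 25 of 38 (all genes 20.6%). In the saline group library 2 was the highest in 29 of 38 (all genes 26.3%) and library 5 the lowest in 24 of 38 (all genes 12.8%). Saline library 2 also stood apart in the mean of the 7 neutrophil markers, at 4.29 log2 CPM against 0.00108 to 1.65 in the other 4 saline libraries. It was the highest of its group in the glucocorticoid list (7.19 against 5.68 to 6.25), the endothelial markers (9.81 against 9.25 to 9.53) and the heat shock genes (6.77 against 6.01 to 6.50). The part of these in the values of that library was not tested. In the atrasentan group library 6 was the highest in 13 (all genes 23.3%), and library 2 or 4 was the lowest in 13 and 12 (all genes 16.99% and 12.5%). The members share their libraries and are not independent of each other.

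Genes around the pathway were taken from lists drawn up with earlier results known. Their counts stand beside the shares of all tested genes. Against saline 15.3% rose and 18.5% fell with atrasentan. With atrasentan against wild type 14.7% rose and 14.5% fell, and in saline against wild type 3.21% rose and 1.91% fell. Where a count of genes that passed was small, its genes are named after their values were seen. Of 19 genes that carry the signal to SRF and CREB, 9 rose and 0 fell with atrasentan against saline (median 0.24, all genes −0.01). Mapk3, which codes for the kinase ERK1, read 219 to 263 CPM with saline and 305 to 417 with atrasentan, a rise of 0.51 ± 0.10 (adjusted p = 0.00125). Against wild type 8 of the 19 rose and 1, Rps6ka5, fell. In saline against wild type 1, Rps6ka1, rose.

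Of 19 other feedback inhibitors, 3 rose against saline (Dusp2, Spry1 and Spred1) and 3 fell (Socs3, Dusp14 and Errfi1), where 15.3% of all genes rose and 18.5% fell, so neither count stood far from the general level. Socs3, the brake on cytokine signalling through JAK and STAT, read 505, 171, 712, 715 and 209 CPM in wild type, 800, 1120, 921, 987 and 582 with saline, and 165 to 304 with atrasentan. It fell by 2.0 ± 0.30 (adjusted p = 0.000293) with no overlap between the ob/ob groups. Dusp14 fell by 1.65 ± 0.21 (0.000139; 10.4 to 23.8 CPM with saline, 3.88 to 6.87 with atrasentan). Against wild type 7 rose and 3 fell, and in saline against wild type Errfi1, the inhibitor of the EGF receptor, rose (1.45 ± 0.18, 0.00113) and Nab1 fell.

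Of the secreted and delayed early genes 17 of 19 were tested. Against saline 3 rose (Timp1, Thbs1 and Plaur) and 4 fell, among them Plk2, Vegfa and Ptgs2, with a median of 0.17. Neither count stood far from the shares of all genes. Plk2, a kinase induced with the immediate early genes, read 266 to 583 CPM in wild type, 315 to 543 with saline and 124 to 216 with atrasentan, and fell by 1.47 ± 0.20 (adjusted p = 0.000162). Vegfa, the podocyte-derived growth factor of glomerular endothelium, fell by 0.89 ± 0.20 (0.00288; 461 to 847 and 212 to 437 CPM). Against wild type 7 rose, led by the chemokine Cxcl2 (2.69 ± 0.48, 0.000578), and 3 fell. In saline against wild type 2 rose, Plk3 and Cxcl2, and 1 fell, Hbegf. Cxcl2 lost that call without any 1 wild type library, saline library 2 or saline library 3 (adjusted p up to 0.094).

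Of 21 partners of AP-1 and EGR proteins 4 rose (Batf, Batf3, Jdp2 and Id3) and 1 fell (Cebpd) against saline. The share that rose was near the 15.3% of all genes, and the share that fell was under their 18.5%. Against wild type 6 rose and 2 fell with atrasentan, and 1 (Cebpd) rose and 0 fell with saline. Of 9 genes of the glucocorticoid response, 0 passed against saline. Against wild type, 4 rose with atrasentan (Fkbp5, Lcn2, Sult1a1 and Tsc22d3) and 1 with saline (Fkbp5). Fkbp5, a chaperone of the glucocorticoid receptor, rose by 1.93 ± 0.44 with saline (adjusted p = 0.0242), a call lost without wild type library 1, 4 or 5 or saline library 1 or 3 (adjusted p up to 0.0675).

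Heat shock genes also respond to handling and temperature. Of 13, Hspa1b rose and Hspd1 fell against saline, Bag3 rose against wild type, and 0 passed in saline against wild type. Their mean level in wild type libraries 1 to 5 was 6.37, 7.52, 6.24, 6.02 and 5.51 log2 CPM, so library 2 stood highest, where the immediate early genes stood highest in libraries 3 and 4. Wild type library 5 was the lowest of its group in both lists (5.51 and 5.77). Saline library 2 was the highest of its group in both (6.77 and 7.14). With atrasentan the highest differed, library 3 for heat shock (6.98) and library 6 for the immediate early genes (6.24). A link between the 2 lists was not tested. Hspa1b read 60.2, 188, 19.8, 32.9 and 6.04 CPM in wild type libraries 1 to 5, 16.1 to 54.4 with saline and 26.6 to 259 with atrasentan.

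**Figure D4:**
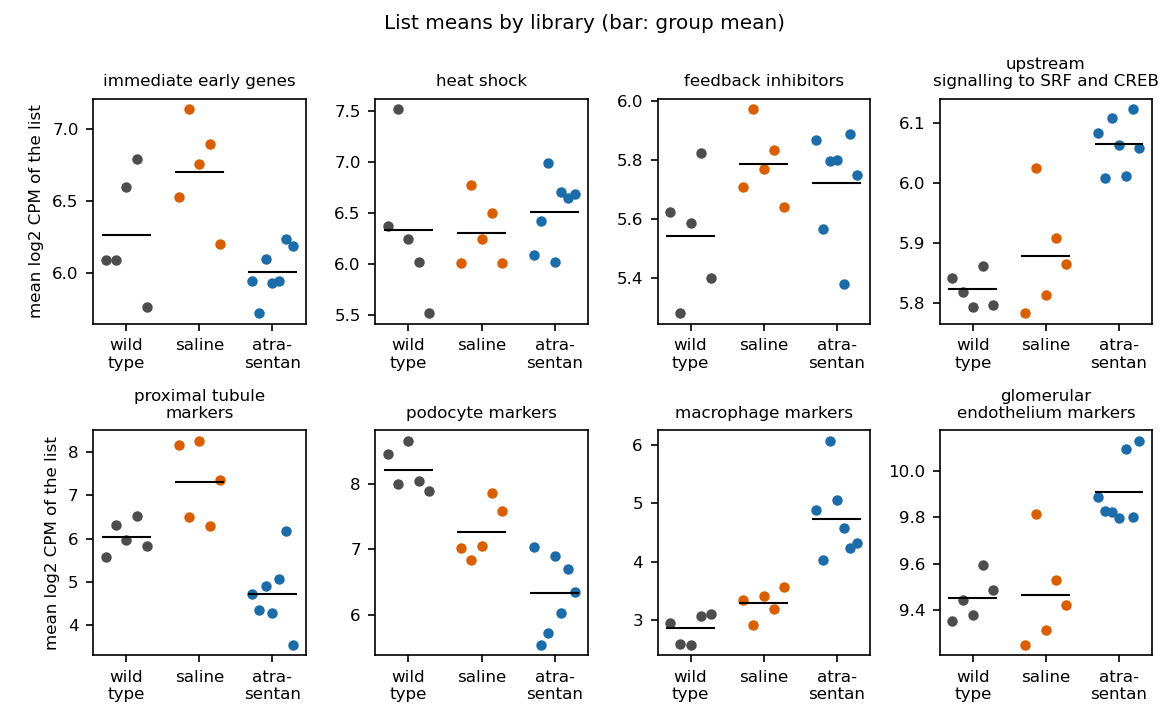
Mean log2 CPM of 8 gene lists (vertical axes, each with its own range) in each library of the 3 groups; points are libraries and bars group means. The immediate early genes are lowest on average with atrasentan (6.01), while proximal tubule and podocyte markers are also lower there and macrophage and endothelial markers higher.

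Markers of the cell types in the tissue moved with the same contrasts. Against saline, 9 of 18 podocyte markers fell and 0 rose, 13 of 17 proximal tubule markers fell and 0 rose, and 3 of 10 distal nephron markers fell. In the same contrast 9 of 13 endothelial, 5 of 12 mesangial and smooth muscle, 9 of 12 macrophage and 4 of 10 lymphocyte markers rose, with 0 falling, and 4 of the 6 red cell markers tested rose and 1 fell. Of the 6 neutrophil markers tested 0 passed there. Over all genes 15.3% rose and 18.5% fell in that contrast.

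Podocyte markers summed to 9881 to 15863 CPM in wild type, 5484 to 11014 with saline and 2694 to 6063 with atrasentan. Proximal tubule markers summed to 2951 to 4599, 3994 to 13949 and 1841 to 3430, macrophage markers to 307 to 727, 298 to 495 and 451 to 1543, and endothelial markers to 13287 to 15144, 12096 to 16317 and 17006 to 23165. No marker in these lists was at 0 in a whole group. Against wild type 17 of 18 podocyte markers fell, and in saline against wild type 7 fell while 6 of 17 proximal tubule markers rose and 1 fell. Over all genes 14.5% fell with atrasentan against wild type. In saline against wild type 3.21% of all genes rose and 1.91% fell. With the difference between podocyte and proximal tubule markers as a covariate, 16 of the 38 genes fell against saline, among them 15 of the 18 and Rhob. Of all 17766 tested genes, 1251 fell there. Egr3 (−1.07, adjusted p = 0.187), Dusp5 (−0.92, 0.0787) and Gadd45g (−0.40, 0.324) lost their calls, and the value of Dusp5 was further from 0 than without the covariate. Both marker means were lower with atrasentan than with saline (podocyte 6.33 against 7.27 on the log scale, proximal tubule 4.72 against 7.31). Their difference therefore partly cancels these falls, and it holds none of the endothelial, mesangial or macrophage markers. This fit cannot adjust for those cell types, and the part of the cell types in the remaining differences was not tested. In that fit 0 of the 38 passed in saline against wild type (Maff 1.28, adjusted p = 0.331; Gadd45a −0.48, 0.688).

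When the percentage of reads falling outside genes entered the fit, 1 of the 18 calls against saline remained, Tob1 (−0.84 ± 0.23, adjusted p = 0.032). The atrasentan libraries do not overlap the others in that share. Of all 17766 tested genes, 1367 fell in this fit. The values of Egr1 (−2.67 ± 0.90, 0.0672), Fos (−2.33 ± 0.97, 0.134) and Btg2 (−1.84 ± 0.62, 0.0674), among the largest falls above, stayed near those with larger standard errors. Nr4a1 moved to −0.07, Egr3 to −0.27, Gadd45g to −0.22 and Dusp5 to 0.11. Against wild type, Maff (2.33 ± 0.55, 0.0325) and Gadd45a (−2.27 ± 0.52, 0.0279) remained. Mapk3 (0.38, 0.230), Socs3 (−1.30, 0.235), Plk2 (−0.82, 0.219) and Vegfa (−1.23, 0.0932) also lost their calls against saline in this fit, and Dusp14 kept its call. The part of library preparation in these differences cannot be told apart from that of treatment.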

How the data were processed

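Poly(A) RNA of 17 libraries was sequenced as single-end reads from TruSeq RNA v2 libraries, per the labels' protocols, a kit that does not mark strand. The authors deposited whole-number read counts per gene, made with STAR and HTSeq on GRCm38 per the submitters' processing notes, and a table of normalized log2 values. Tool versions and the strand setting of counting: not given in the sources used here. The counts were used for every test, and the deposited log2 table for 1 alternative. Lines of the count table that name no gene (reads outside genes, in several places, 23.4% to 31.8%, or in more than 1 gene) stayed out of library sizes.

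Counts were filtered with filterByExpr (minimum count 10), scaled by TMM (factors 0.8919 to 1.146) and fitted over all 17 libraries with the quasi-likelihood F test of edgeR 4.0.16 in R 4.3.3, with 1 coefficient per group. All p-values in the text are from it, Benjamini-Hochberg adjusted over 17766 genes, unless another test is named, and 0.05 is the threshold. A standard error is the fold change divided by the root of F. Log2 CPM used a prior count of 2. Permutation tests used scipy 1.17.1 (Python 3.11.15). Scripts were tested on simulated data. Nothing in the labels states that libraries are separate animals beyond the group sizes, so p-values measure the spread between these libraries.

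The members and gene lists were chosen with earlier results of these data known. Every member was to be described, and of each related list at most the 2 called genes with the largest log2 fold change per comparison among those whose groups did not overlap; other names of called genes were added after their values were seen. Libraries were numbered in accession order. Alternatives were DESeq2 1.42.0, limma 3.58.1 (voom and the deposited log2 table), other scalings, no filter, 2 covariates, 2 groups only and leaving out each library. Removing saline libraries 1 and 3 together was added after seeing the data. Several members share exon bases with a gene on the other strand, among them Zfp36l1 (55.9% of its exon bases) and Dusp5 (22.1%). The kit does not mark strand, so strand cannot assign such reads to either gene. How they were counted depends on the strand setting, which is not given. Some items are not reported here.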

Additional observations from a re-analysis of the deposited data

Results flagged for a closer look

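Each of the 38 tested genes and the mean of the members were checked in each of the 3 groups, 117 checks in all. In 3 of them a library stood further from its group than Dixon's 95% critical value (0.71 for 5 libraries) allows. Chance gives about 1 in 20, so these 3 are fewer than chance would give. Fos in saline library 5 was the lowest of its group at 9.626 log2 CPM. Csrnp1 in wild type library 5 was the lowest of its group at 5.536. Zfp36l1 in saline library 2 was the highest of its group at 7.654.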

How the results depend on the processing

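Of the 18 falls against saline, 15 kept their call in all leave-one-out fits, and of the 16 calls against wild type, 11 did. No paired analysis was possible because the replicate numbers follow accession order and pair no mice. In saline against wild type 910 genes and 2 members were called. DESeq2 called 2003 and 5, limma-voom 550 and 1, the podocyte and proximal tubule covariate 6 and 0, the covariate of reads outside genes 409 genes, a fit of only these 2 groups 1430 genes, and 1 member was called on the deposited log2 values. Without saline libraries 1 and 3, chosen after seeing the data, it was 54 genes and 1 member. Saline libraries 1 and 3 had the highest proximal tubule means of their group (8.17 and 8.26 log2 CPM, the others 6.29 to 7.34). Their distal nephron means were the highest too (7.27 and 7.11, the others 5.27 to 6.26). Leaving out 1 library gave 216 to 1523 genes and 0 to 3 members. Against saline 6001 genes and 18 members were called with atrasentan, 2305 genes with the marker covariate, 1931 genes and 1 member with the covariate of reads outside genes, and 2577 genes without saline libraries 1 and 3, where Egr3 (−1.09, adjusted p = 0.138), Dusp5 (−0.88, 0.0677) and Gadd45g (−0.61, 0.137) lost their calls and Csrnp1 (−0.90, 0.0329) and Rhob (−0.59, 0.0358) fell. Against wild type 5190 genes and 16 members became 582 and 2 with the covariate of reads outside genes. In that fit Dusp5 changed direction against saline (0.1111, adjusted p = 0.932). The cause of these shifts was not tested. Over the members that passed the filter, the mean level was higher in every group than over all 39. It was 6.5263 log2 CPM against 6.2673 in wild type, 6.9674 against 6.7048 with saline and 6.2709 against 6.0111 with atrasentan. The filter removed Egr4 alone, the member with the lowest level in each group, so a higher mean without it was fixed in advance.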
